A study of Mus musculus with 20 samples.

Results

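The genes described here encode the core and the scaffold of the elastic fibre: elastin (Eln), the fibrillins Fbn1 and Fbn2, the fibulins Fbln1, Fbln2, Fbln5, Efemp1 and Efemp2, and the microfibril-associated proteins Mfap4 and Mfap5. They were taken by name from a table of 55414 genes, of which 52081 could be given a mouse symbol, and all 10 were found in it. All 10 also passed the low-count filter that left 15624 genes for testing. The rule that lists them uses no expression value, though the 10 genes were chosen with earlier results of these data known.

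An elastic fibre is a core of cross-linked elastin laid down on a sheath of fibrillin microfibrils. Several fibulins bind both elastin and fibrillin and bring elastin to the scaffold, lysyl oxidases cross-link it, and microfibril-associated glycoproteins decorate the fibrillin. Microfibrils also hold latent TGF-beta, the growth factor used in these cultures, through the latent TGF-beta binding proteins. In the heart, fibroblasts and vessel wall cells make these proteins, and elastic fibres are found in the valves, the vessels and the interstitium.

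RNA was sequenced from 20 cultures of mouse cardiac fibroblasts, 4 in each of 5 groups. GFP_TGFB cultures received a GFP adenovirus and TGFB, Cre_TGFB cultures a Cre adenovirus and TGFB, Cre cultures the Cre adenovirus alone, Hyal2 cultures an adenovirus that overexpresses Hyal2, a hyaluronidase that cleaves the matrix sugar hyaluronan, and GFP cultures, labelled as the control, the GFP adenovirus alone. All cells came from Hyal2 fl/fl mice, in which Cre removes part of Hyal2, while the genotype label reads wild type C57BL/6J; the age of the mice is not given, and "P2" in the protocol is not defined. Serum was withdrawn for 24 h before the virus, which was left on for 5 h, and growth factor (20 ng/mL) followed for 48 h until RNA was taken. The protocol names bFGF beside TGFb in that step without saying which groups received bFGF, so every TGFB comparison below cannot be told apart from a difference in bFGF. Replicates 1 and 2 of each group came from female and replicates 3 and 4 from male mice, and same-numbered cultures share a sample stem in their library names, so they are treated here as 4 cell isolates. Cells were plated at the yield of 1 heart per flask; the labels do not say whether an isolate is a single heart.

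Library totals ran between 38.6 M and 104.8 M counts (M, 1e6 counts). Hyal2 stood at 36.8 ± 3.9 CPM (counts scaled to a library of 1e6) in GFP_TGFB, 7.42 ± 1.56 in Cre_TGFB, 10.4 ± 2.9 in Cre, 934 ± 466 in Hyal2 and 41.2 ± 3.46 in GFP cultures (SD, n = 4 each), so the labels of the virus groups held, with RNA of the gene still counted after Cre. Of the fibroblast markers, Vim averaged 3700 CPM in GFP_TGFB and 4360 CPM in GFP cultures and Col1a2 12100 CPM in GFP_TGFB and 10100 CPM in GFP cultures, with the other 4 genes of that list given beside the TGFB results, while the cardiomyocyte markers summed to at most 3.66 CPM and the adipocyte markers to at most 0.601 CPM in any library. CPM values throughout are scaled by the trimmed mean of M values (TMM), and values called log2 fold changes come from edgeR's quasi-likelihood test with Benjamini-Hochberg adjustment over the 15624 genes. A gene is called changed where that adjusted p is below 0.05.

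The 10 genes together made up 1.35% ± 0.0783 of all counts in GFP_TGFB cultures, 1.38% ± 0.056 in Cre_TGFB, 1.58% ± 0.0933 in Cre, 1.62% ± 0.0499 in Hyal2 and 1.54% ± 0.0889 in GFP cultures (SD, n = 4 each). Per kilobase of exon, Fbln2, a fibulin that binds fibrillin and several basement membrane proteins, was at the top of the order in every group, at 1490 ± 127 CPM per kb in GFP_TGFB and 1570 ± 157 in GFP cultures. Fbn1, the main fibrillin of postnatal tissue, came next at 253 ± 19.9 CPM per kb in GFP_TGFB and 229 ± 11.4 in GFP cultures. Fbn2, the fibrillin made mostly before birth, was lowest at 0.0554 ± 0.0144 and 0.126 ± 0.099 CPM per kb in the same groups.

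Between those ends the order differed with TGFB. In GFP_TGFB cultures it ran Efemp2 (149 ± 9 CPM per kb), Mfap5 (100 ± 9.03), Mfap4 (72.9 ± 17.4), Fbln5 (27.1 ± 3.16), Eln (23.3 ± 5.08), Fbln1 (7.55 ± 1.14) and Efemp1 (4.95 ± 0.816). The ranges of Fbln5 and Eln overlapped there (24 to 31.5 and 20.4 to 30.9 CPM per kb), though Fbln5 was higher in each library. In GFP cultures it ran Efemp1 (200 ± 104 CPM per kb), Efemp2 (181 ± 12.3), Mfap4 (84.1 ± 22.4), Fbln5 (52.1 ± 4.68), Mfap5 (47.1 ± 4.05), Fbln1 (46.2 ± 7.54) and Eln (5.88 ± 3.44). There Efemp1 ran from 95.9 to 301 CPM per kb, against 214 to 238 for Fbn1 and 167 to 194 for Efemp2. Efemp1 lay below both genes in the female isolates and above both in the male isolates. Fbln5, Mfap5 and Fbln1 could not be separated from each other. By group means Efemp1 thus ranked next above Fbn2 in GFP_TGFB cultures, at 4.95 against 0.0554 CPM per kb. In GFP cultures its mean ranked next below that of Fbn1 (200 against 229), a place that averages over unlike isolates. The lengths are the union of exons in GENCODE M21 on GRCm38, and the counts were made on GRCm39.

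**Figure D1:**
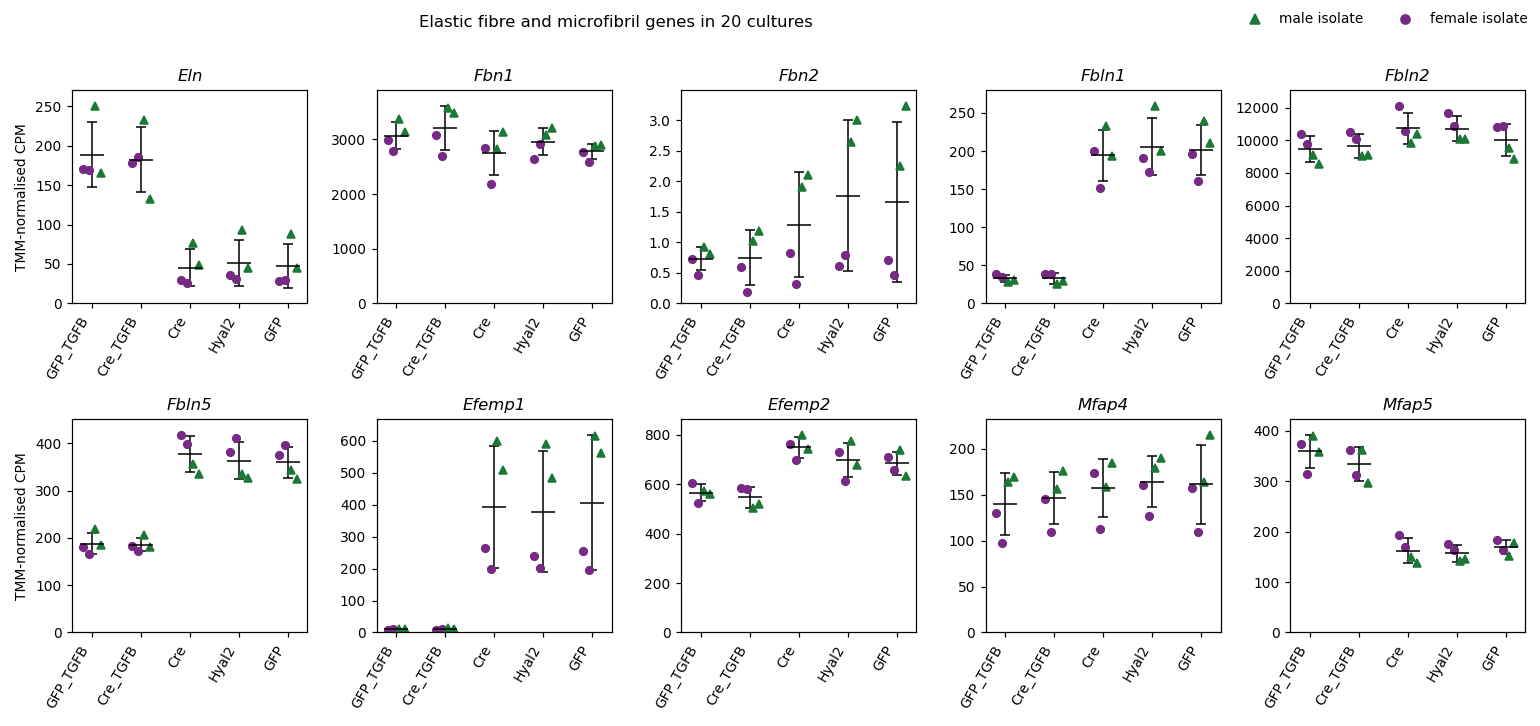
TMM-normalised CPM of each of the 10 genes (linear axes from 0) in the 20 cultures, with male isolates as triangles and female isolates as circles; the horizontal tick is the group mean and the bar 1 SD (n = 4). In the GFP_TGFB and Cre_TGFB columns Eln and Mfap5 lie above, and Fbln1, Fbln5, Efemp1 and Efemp2 below, the matching Cre and GFP columns.

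With the GFP virus, 6 of the 10 genes were called between GFP_TGFB and GFP cultures, against a background of 55.3% of all genes tested in this comparison. Eln and Mfap5 rose (2 of 10, background 26.6%), and Fbln1, Fbln5, Efemp1 and Efemp2 fell (4 of 10, background 28.6%). The median log2 fold change of the 10 genes was -0.24, against -0.02 over all genes. The same 6 genes were those whose GFP_TGFB and GFP libraries did not overlap in CPM, where 50.2% of all genes showed no overlap. Called changes of at least 2-fold were seen for 4 of the 10, against 18.9% of all genes. The cultures are bulk samples, in which fewer cells of a type and less RNA per cell cannot be told apart.

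Eln encodes tropoelastin, the soluble precursor that is cross-linked into the elastic core (ENSMUSG00000029675, chr5:134702593-134747323, minus strand, GRCm38). Its level was 170, 169, 250 and 165 CPM in the 4 GFP_TGFB libraries, against 28.9, 29.2, 88.0 and 44.4 CPM in the GFP libraries. Every GFP_TGFB library was above every GFP library, and the male isolates 3 and 4 held the 2 highest GFP values. The log2 fold change was 1.99 (SE 0.40, adjusted p = 0.000332), a 3.97-fold difference with a 95% interval of 1.13 to 2.84 on the log2 scale. Within isolates the difference in log2(CPM + 0.5) was 2.54, 2.52, 1.5 and 1.89.

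Mfap5, a glycoprotein bound to fibrillin microfibrils, was at 373, 315, 390 and 358 CPM in GFP_TGFB and at 183, 164, 151 and 178 CPM in GFP libraries. The groups were apart by more than the whole range within either of them. Its log2 fold change was 1.09 (SE 0.11, adjusted p = 7.57e-08), and the difference within isolates lay between 0.94 and 1.36.

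Efemp1, also called fibulin-3, a short fibulin of elastic tissues and basement membranes, showed the steepest change of the 10. Its level was 7.86, 9.78, 11.2 and 11.5 CPM in GFP_TGFB libraries, against 256, 195, 614 and 561 CPM in GFP libraries. The lowest GFP library was far above the highest GFP_TGFB library, and the male GFP libraries stood well above the female ones. The log2 fold change was -5.33 (SE 0.47, adjusted p = 1.65e-08), which is 40.3-fold lower in GFP_TGFB cultures, with a 95% interval of -6.33 to -4.34 on the log2 scale. It lay at percentile 0.358 of the log2 fold changes of all genes tested.

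Fbln1, a fibulin found in elastic fibres, vessel walls and basement membranes, was at 39.1, 34.7, 27.8 and 30.2 CPM in GFP_TGFB libraries and at 196, 161, 240 and 210 CPM in GFP libraries. Each isolate was lower with TGFB. The log2 fold change was -2.61 (SE 0.17, adjusted p = 3.9e-10), 6.12-fold lower in GFP_TGFB cultures.

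Fbln5, which binds elastin and lysyl oxidase-like enzymes and is needed for elastic fibre assembly in mice, was at 181, 166, 218 and 185 CPM in GFP_TGFB and at 375, 396, 343 and 324 CPM in GFP libraries. The groups did not overlap. Its log2 fold change was -0.94 (SE 0.10, adjusted p = 1.53e-07), so it fell while Eln rose in the same cultures. Efemp2, or fibulin-4, which ties lysyl oxidase to elastin, was at 606, 524, 573 and 561 CPM in GFP_TGFB and at 710, 658, 736 and 634 CPM in GFP libraries. That is a small difference of -0.27 on the log2 scale (SE 0.08, adjusted p = 0.0056), negative in each of the 4 isolates. With the isolate as a replicate block 8 of the 10 genes were called, against 61.9% of all genes, the added pair being Fbn2 and Mfap4.

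RefSeq promoter windows on GRCm38.p6, 250 bases before to 50 bases after a gene's start, were given for 6 of the 10 genes. No window was given for Eln, Fbn2, Mfap4 or Mfap5, so the genes that rose were not searched. Where a gene had several windows, the one nearest its GENCODE start was used. The windows of Efemp1 and Fbln1 are shown because these genes fell the most and moved together, and those of Fbn1 and Fbln2 because these are the abundant members not called with the GFP virus. They were searched on both strands for the core SMAD box CAGAC, which reads on the other strand as GTCTG, shown in capitals, since SMAD proteins carry the TGF-beta signal to DNA.
Efemp1 promoter, chr11:28852955-28853254, plus strand: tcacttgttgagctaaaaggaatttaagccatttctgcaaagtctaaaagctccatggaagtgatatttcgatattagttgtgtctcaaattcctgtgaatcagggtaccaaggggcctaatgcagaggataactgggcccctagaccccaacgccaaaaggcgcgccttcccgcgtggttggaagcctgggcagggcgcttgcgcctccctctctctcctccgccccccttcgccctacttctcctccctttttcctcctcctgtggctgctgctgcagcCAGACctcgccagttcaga
Fbln1 promoter, chr15:85205699-85205998, plus strand: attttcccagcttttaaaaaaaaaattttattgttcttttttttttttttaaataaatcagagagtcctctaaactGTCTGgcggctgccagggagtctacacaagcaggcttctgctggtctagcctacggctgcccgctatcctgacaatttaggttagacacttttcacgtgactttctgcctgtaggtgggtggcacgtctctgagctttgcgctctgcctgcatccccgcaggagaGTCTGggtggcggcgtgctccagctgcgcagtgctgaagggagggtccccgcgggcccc
Fbn1 promoter, chr2:125506389-125506688, minus strand, a window inside the GENCODE gene: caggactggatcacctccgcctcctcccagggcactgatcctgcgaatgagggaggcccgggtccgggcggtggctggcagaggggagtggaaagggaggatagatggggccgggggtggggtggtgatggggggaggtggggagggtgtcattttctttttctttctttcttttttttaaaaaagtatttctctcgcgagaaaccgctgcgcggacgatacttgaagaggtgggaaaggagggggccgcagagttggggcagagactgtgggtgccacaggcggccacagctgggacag
Fbln2 promoter, chr6:91212514-91212813, plus strand: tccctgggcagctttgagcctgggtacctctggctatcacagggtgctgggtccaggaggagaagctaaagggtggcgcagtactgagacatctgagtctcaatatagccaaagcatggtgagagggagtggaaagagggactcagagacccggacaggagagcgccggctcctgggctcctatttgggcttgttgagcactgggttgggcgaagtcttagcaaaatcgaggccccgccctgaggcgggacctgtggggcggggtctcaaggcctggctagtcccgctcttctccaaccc
The SMAD box letters occurred 1 time in the Efemp1 window and 2 times in the Fbln1 window, and 0 times in those of Fbn1 and Fbln2. Like the Fbn1 window, the Fbln2 window lies inside the GENCODE gene, which starts at 91212455. The Efemp1 and Fbln1 windows span their annotated starts, so the windows compared are not placed alike. Fbln5 held 1 and Efemp2 held 2 matches, while 49.6% of 32851 promoter windows of the same length held at least 1. The AP-1 letters TGANTCA were found in the Efemp1 window only among the 6 (7.81% of all windows), the GC box GGGCGG in every one but Fbln1 (35.7%), and TATAAA in none (13.6%). No SMAD box match overlapped another motif searched. A match of letters is a description of these windows and marks no bound site.

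The other 4 genes were not called with the GFP virus. Fbn1 was at 2980, 2790, 3370 and 3130 CPM in GFP_TGFB and at 2770, 2590, 2870 and 2890 CPM in GFP libraries, a log2 fold change of 0.14 (95% interval -0.08 to 0.36, adjusted p = 0.257). Fbln2 was at 10400, 9800, 9080 and 8570 CPM in GFP_TGFB and at 10800, 10900, 9520 and 8870 CPM in GFP libraries, a log2 fold change of -0.08 (interval -0.27 to 0.11, adjusted p = 0.45). For both genes the intervals hold no 2-fold change.

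Mfap4, which binds tropoelastin and fibrillin, was at 130, 97.1, 164 and 169 CPM in GFP_TGFB and at 157, 110, 164 and 215 CPM in GFP libraries. The groups overlapped through the spread between isolates, and the log2 fold change was -0.21 (interval -0.65 to 0.23, adjusted p = 0.414). With the isolate as a replicate block it was -0.20 and was called (adjusted p = 0.0142). Fbn2 had 27 to 36 counts per GFP_TGFB library and 32 to 138 per GFP library. Its log2 fold change of -1.19 was not called (interval -2.63 to 0.26, adjusted p = 0.147) but was called with the replicate block, at -0.91 (adjusted p = 0.0134).

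**Figure D2:**
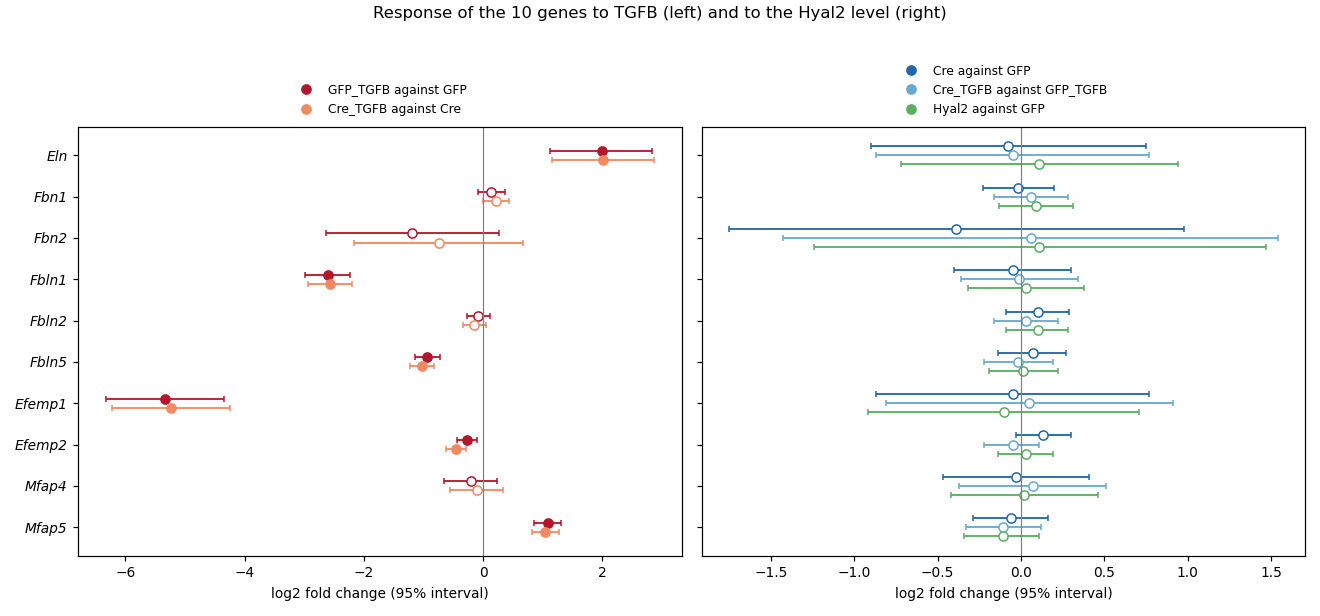
Log2 fold changes of the 10 genes with 95% intervals for TGFB (left, GFP_TGFB against GFP and Cre_TGFB against Cre) and for the Hyal2 level (right, Cre against GFP, Cre_TGFB against GFP_TGFB and Hyal2 against GFP); filled points passed an adjusted p of 0.05 and open points did not. The points of the 2 TGFB comparisons lie from -5.33 for Efemp1 to 2.01 for Eln, with the widest gap between them for Fbn2 (-1.19 with the GFP virus and -0.74 with the Cre virus), and on the right every interval crosses 0.

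After Hyal2 deletion the TGFB comparison was made again in separate cultures of the same isolates. Between Cre_TGFB and Cre cultures 6 of the 10 genes were called (background 56.5%), with Eln and Mfap5 higher (background 27.5%) and Fbln1, Fbln5, Efemp1 and Efemp2 lower (background 29%). Eln was at 178, 186, 233 and 132 CPM in Cre_TGFB libraries, against 29.3, 25.8, 77.1 and 48.9 CPM in Cre libraries, a log2 fold change of 2.01 (SE 0.40, adjusted p = 0.00029). Efemp1 was at 8.83, 9.54, 12.9 and 10.5 CPM in Cre_TGFB libraries, against 264, 199, 599 and 508 CPM in Cre libraries, a log2 fold change of -5.23 (SE 0.46, adjusted p = 1.93e-08). Neither gene's groups overlapped.

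The other called genes gave log2 fold changes of -2.57 for Fbln1, -1.02 for Fbln5, -0.46 for Efemp2 and 1.04 for Mfap5, with adjusted p of at most 5.9e-05 (edgeR quasi-likelihood test). Of the 4 genes not called, Fbn1 had a log2 fold change of 0.22 (interval 0 to 0.44, adjusted p = 0.0759) and was called with the replicate block (adjusted p = 0.00792). It was also called when Cre_TGFB replicate 2 was left out (0.29, adjusted p = 0.0209) or Cre replicate 4 was left out (0.30, adjusted p = 0.0228). Fbln2, at -0.15, and Fbn2, at -0.74, were not called (adjusted p = 0.158 and 0.353) and were called with the block (adjusted p = 0.00831 and 0.0434, the block value of Fbn2 being -0.69). Mfap4, at -0.11, was called in neither fit (interval -0.55 to 0.33), so that 9 of the 10 genes were called with the block, against 63.6% of all genes.

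The difference between the 2 TGFB responses was tested as an interaction. Of the 10 genes 0 were called, 0 also at an unadjusted p under 0.05 and 0 with DESeq2, where 0% of all genes were called by edgeR and 2.54% had an unadjusted p under 0.05. The interaction values lay between -0.18 for Efemp2 (interval -0.42 to 0.05) and 0.44 for Fbn2 (interval -1.57 to 2.46). For Eln it was 0.02 with an interval of -1.14 to 1.19, and for Efemp1 0.10 with an interval of -1.09 to 1.29. With the isolate as a replicate block these intervals narrowed to -0.63 to 0.68 for Eln and -0.59 to 0.73 for Efemp1, which hold no 2-fold difference. Without the block they were narrow for Fbln5 (-0.37 to 0.21) and Mfap5 (-0.36 to 0.27), and the other values were 0.08 for Fbn1, 0.04 for Fbln1, -0.07 for Fbln2 and 0.10 for Mfap4.

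Other cell markers moved with TGFB as well. The 7 smooth muscle markers summed to 5650 to 7110 CPM in the 8 libraries with TGFB, against 878 to 1910 CPM in the 12 libraries without, carried by Acta2 and Tagln, while Myh11 averaged 1.94 CPM in GFP_TGFB and 0.625 CPM in GFP cultures. Of the fibroblast list, Col1a1 averaged 19100 CPM in GFP_TGFB and 11000 CPM in GFP cultures. Pdgfra stood at 153 CPM in GFP_TGFB and 1020 CPM in GFP cultures, Dcn at 326 CPM in GFP_TGFB and 1340 CPM in GFP cultures, and Tcf21 at 26.5 CPM in GFP_TGFB and 131 CPM in GFP cultures. The 7 leukocyte markers summed to 101 to 264 CPM with TGFB and 154 to 418 CPM without, the 7 endothelial markers to 16.1 to 24.9 CPM with and 36.2 to 43.4 CPM without, and the 5 pericyte markers to 98.2 to 114 CPM with and 97.5 to 198 CPM without. Within that last sum, Cspg4 averaged 64.6 CPM in GFP_TGFB and 2.55 CPM in GFP cultures, and Notch3 38.7 CPM in GFP_TGFB and 127 CPM in GFP cultures. Their part in the changes of the 10 genes was not tested.

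The 4 isolates did not start from the same levels. Without TGFB, Efemp1 had a lowest, median and highest value of 483, 576 and 614 CPM in the 6 male libraries, against 195, 220 and 264 CPM in the 6 female libraries. Eln ran the same way, at 44.4, 63.0 and 93.6 CPM in male and 25.8, 29.2 and 36.6 CPM in female libraries, as did Fbn2, at 1.91, 2.45 and 3.23 CPM in male and 0.322, 0.663 and 0.826 CPM in female libraries. Fbln5 was lower in males, at 324, 335 and 357 CPM, against 375, 397 and 417 CPM in females, and so was Fbln2, at 8870, 9970 and 10400 CPM in males and 10600, 10900 and 12100 CPM in females. For these 5 of the 10 genes the sexes did not overlap, against 16.1% of all genes. Each sex is 2 isolates, so sex and isolate cannot be told apart, and no p is given for these levels.

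With TGFB the sexes lay closer for Eln, Fbn2, Fbln5 and Efemp1, while the ratio of Fbln2 stayed at 0.875. Eln was at 132, 199 and 250 CPM in the 4 male and 169, 174 and 186 CPM in the 4 female libraries, and Fbln5 at 181, 195 and 218 CPM in male and 166, 177 and 183 CPM in female libraries, overlapping in both cases. Efemp1 was at 10.5, 11.3 and 12.9 CPM in male and 7.86, 9.19 and 9.78 CPM in female libraries, a male to female ratio of means of 1.28 with TGFB and 2.48 without. For Fbn2 that ratio was 1.97 with TGFB and 4.05 without. Fbln1 overlapped between the sexes without TGFB and did not with it, at 25.2, 28.5 and 30.2 CPM in male and 34.7, 38.4 and 39.1 CPM in female libraries. The same held for Fbn1, at 3130 to 3570 CPM in male and 2700 to 3070 CPM in female libraries with TGFB, and for Mfap4, at 156 to 176 CPM in male and 97.1 to 145 CPM in female libraries. With TGFB 6 of the 10 genes did not overlap between the sexes, against 23.6% of all genes.

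Whether the TGFB response of GFP-virus cultures differed between male and female isolates was tested as male minus female. Of the 10 genes 0 were called by edgeR without a block (background 1.38%), with 4 at an unadjusted p under 0.05 (16.5% of all genes). DESeq2 called 2 of the 10 genes, and 785 of all 15624 genes. With the isolate as a block within sex, 5 were called (background 6.05%), 1 of them higher (3.23%) and 4 lower (2.82%). The block fit takes its error from the scatter left among all 20 cultures, while sex varies only between the isolates, 2 a sex. Sex and isolate therefore cannot be told apart in these values. In the block fit the rise of Eln was smaller in males by 0.84 on the log2 scale (male minus female -0.84, adjusted p = 0.00367), and the fall of Efemp1 was steeper (-1.05, adjusted p = 0.00773). The fall of Fbln1 was also steeper in males (-0.68, adjusted p = 0.0278), the fall of Fbln5 shallower (0.42, adjusted p = 0.0241), and Fbn2 differed by -1.68 (adjusted p = 0.0445). The same 5 values without the block were -0.90, -1.03, -0.68, 0.43 and -1.68, with adjusted p of 0.452, 0.0509, 0.117, 0.0932 and 0.18. Called in neither fit were Fbn1 (0.07), Fbln2 (0.04), Efemp2 (0.00), Mfap4 (0.05) and Mfap5 (0.20). Leaving out the female isolate 1, which leaves 1 female isolate, gave -1.36 for Efemp1 without the block. Over all alternative runs the Efemp1 value lay between -1.36 and -0.67.

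In Cre_TGFB minus Cre, other libraries of the same isolates, each of these 5 genes differed between the sexes in the same direction with no overlap. In all 7 of the 10 genes showed no overlap there, Efemp2 and Mfap5 being the others, and 6 of the 10 in GFP_TGFB minus GFP. With 2 isolates a sex that is common, at 54.1% of all genes in Cre_TGFB minus Cre and 50.8% in GFP_TGFB minus GFP, so the counts are near the background. The mean differences in log2(CPM + 0.5) were 1.5 in male and 2.70 in female isolates for Eln, -5.51 in male and -4.57 in female for Efemp1, and -2.95 in male and -2.17 in female for Fbln1. They were -0.84 in male and -1.20 in female isolates for Fbln5, and -0.64 in male and -0.25 in female for Fbn2. With 2 isolates a sex, the smallest two-sided exact permutation p is 0.333, so no such test was made. The leukocyte markers summed to 154 to 246 CPM in male and 279 to 418 CPM in female libraries without TGFB, and to 101 to 139 CPM in male and 201 to 264 CPM in female libraries with it. The fibroblast list was apart without TGFB, at 30000 to 33700 CPM in male and 23300 to 29200 CPM in female libraries, and the endothelial list with it, at 16.1 to 16.7 CPM in male and 19.3 to 24.9 CPM in female libraries. The mesothelial and cardiomyocyte lists were also apart with TGFB, at no more than 3.58 CPM. The part of these lists in the differences was not tested.

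**Figure D3:**
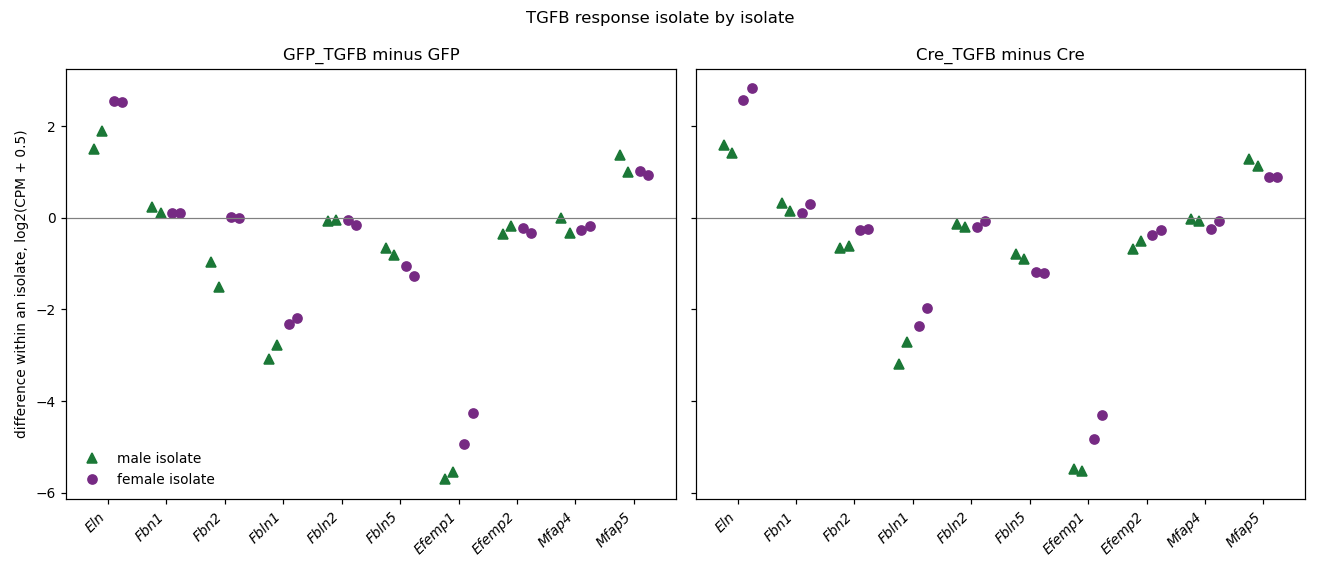
Difference in log2(CPM + 0.5) within each isolate for GFP_TGFB minus GFP (left) and Cre_TGFB minus Cre (right), with 1 point per isolate, males as triangles and females as circles. Eln lies lower in both male than in both female isolates in each panel (means 1.69 in males and 2.53 in females on the left), and Efemp1 and Fbln1 lie lower as well, while Fbln5 lies higher.

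The study's own question, the effect of changing Hyal2, gave no called change in these genes. Between Cre and GFP cultures 0 of the 10 were called (background 0.0064%, or 1 gene of 15624), 0 at an unadjusted p under 0.05 (4.55% of all genes), 0 with DESeq2 and limma-voom, and 0 with the replicate block (0.269%). Log2 fold changes lay between -0.39 for Fbn2 and 0.13 for Efemp2, with adjusted p between 0.926 and 0.997. Efemp2 was at 761, 697, 798 and 740 CPM in Cre and at 710, 658, 736 and 634 CPM in GFP libraries, higher in 4 of 4 isolates by 0.08 to 0.22, with an interval of -0.03 to 0.30 around a log2 fold change of 0.13. For Eln the value was -0.08 with an interval of -0.90 to 0.75, or -0.52 to 0.42 with the block, and for Fbn1 it was -0.02 with an interval of -0.23 to 0.20. The other values were -0.05 for Fbln1, 0.10 for Fbln2, 0.07 for Fbln5, -0.05 for Efemp1, -0.03 for Mfap4 and -0.06 for Mfap5.

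With TGFB present, Cre_TGFB against GFP_TGFB cultures also gave 0 of 10 calls (background 0.0064%), 0 at an unadjusted p under 0.05 (1.43% of all genes) and 0 with DESeq2. The log2 fold changes lay between -0.11 for Mfap5 (interval -0.33 to 0.12) and 0.07 for Mfap4 (interval -0.37 to 0.51). Eln differed by -0.05 (interval -0.87 to 0.77) and Efemp1 by 0.05 (interval -0.81 to 0.91). With the replicate block these intervals were -0.49 to 0.43 for Eln and -0.46 to 0.53 for Efemp1. Fbn2 was the least precise, at 0.06 with an interval of -1.43 to 1.54. The other values were 0.06 for Fbn1, -0.01 for Fbln1, 0.03 for Fbln2, -0.02 for Fbln5 and -0.05 for Efemp2.

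Hyal2 overexpression gave the same count, 0 of 10 between Hyal2 and GFP cultures (background 0.0064%), 0 at an unadjusted p under 0.05 (2.12% of all genes) and 0 with DESeq2. Values lay between -0.11 for Mfap5 (interval -0.34 to 0.11) and 0.11 for Eln and Fbn2. Eln was at 36.6, 30.6, 93.6 and 44.9 CPM in Hyal2 libraries, against 28.9, 29.2, 88.0 and 44.4 CPM in GFP libraries, within isolates 0.34, 0.07, 0.09 and 0.02 higher. Its interval ran from -0.72 to 0.94, or from -0.35 to 0.59 with the replicate block. Fbln1, at 191, 173, 259 and 200 CPM in Hyal2 libraries, differed by 0.03 (interval -0.32 to 0.38) and Fbln5, at 381, 411, 335 and 326 CPM, by 0.01 (interval -0.19 to 0.22). The remaining values were 0.09 for Fbn1, 0.10 for Fbln2, -0.10 for Efemp1, 0.03 for Efemp2 and 0.02 for Mfap4. These Hyal2 and Cre comparisons share the 4 GFP libraries.

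Around the 10 genes, 5 lists of partner genes were examined between GFP_TGFB and GFP cultures. Their counts stand against the background of this comparison, in which 55.3% of all genes were called, 26.6% higher and 28.6% lower. Among the other microfibril and elastic fibre proteins 19 of 20 were tested, of which 5 rose, 10 fell and 4 were not called, with a median log2 fold change of -0.74 against -0.02 over all genes. Ltbp2, which binds fibrillin-1 and the elastic fibre rather than latent TGF-beta, averaged 3530 ± 667 CPM in GFP_TGFB and 408 ± 30.7 CPM in GFP cultures (SD, n = 4 each), a log2 fold change of 3.11 (SE 0.15, adjusted p = 4.2e-12). Adamtsl3, a secreted ADAMTS-like protein, fell by 2.65 on the log2 scale (adjusted p = 6.63e-11), and Emilin2, an elastin microfibril interface protein, fell by 2.56 (adjusted p = 3.08e-10). Mfap2, the relative of Mfap5 on fibrillin microfibrils, averaged 10.4 ± 1.18 CPM in GFP_TGFB and 44.3 ± 10.5 CPM in GFP cultures, a log2 fold change of -2.09 (adjusted p = 7.7e-08), opposite in sign to the 1.09 of Mfap5. It was singled out after its values were seen.

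All 5 cross-linking enzymes were tested and called (background 55.3%), 4 higher (26.6%) and 1 lower (28.6%), with a median of 1.05 on the log2 scale. Loxl2 averaged 2360 ± 137 CPM in GFP_TGFB and 942 ± 44.8 CPM in GFP cultures (log2 fold change 1.32, adjusted p = 6.32e-11). Lox itself averaged 3440 ± 382 CPM in GFP_TGFB and 1610 ± 258 CPM in GFP cultures (1.09, adjusted p = 7.7e-06), and Loxl3 rose by 1.05 (adjusted p = 3.89e-09). The enzyme that fell was Loxl1, the family member tied most closely to elastin and fibulin-5 in mice, at 917 ± 70.7 CPM in GFP_TGFB and 1260 ± 84.6 CPM in GFP cultures (-0.46, SE 0.08, adjusted p = 0.000121); it too was named after its values were seen.

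Of 12 elastin-cleaving proteases and inhibitors tested among 14, 6 rose (background 26.6%), 4 fell (28.6%) and 2 were not called, with a median of 0.08. Mmp14, a membrane-bound metalloproteinase, rose by 0.59 (adjusted p = 8.36e-08), and the inhibitors Cst3, of cathepsins, and Timp2, of metalloproteinases, fell by 1.24 and 1.12 on the log2 scale (adjusted p = 3.94e-08 and 1.03e-07). Of the other called genes, the inhibitors Timp1 and Timp3 rose (0.80 and 0.77). The proteases Mmp2 and Ctsb fell (-1.46 and -0.51), while Mmp9, Ctsk and Ctsl rose (1.25, 0.69 and 0.28). Proteases and inhibitors thus each moved in both directions. Among 11 of 12 surface receptors tested, 6 rose, 2 fell and 3 were not called against the same background, with a median of 0.54. Itga5, the alpha chain of the fibronectin receptor, averaged 1790 ± 233 CPM in GFP_TGFB and 337 ± 33.1 CPM in GFP cultures (2.41, adjusted p = 1.53e-12), Itgav rose by 0.63 (adjusted p = 7.55e-06), and the heparan sulfate proteoglycan Sdc4 fell by 1.61 (adjusted p = 3.8e-07).

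Of the hyaluronan-binding lecticans and link proteins 3 of 6 were tested. Vcan, or versican, which binds hyaluronan and fibulins, averaged 372 ± 41.5 CPM in GFP_TGFB and 644 ± 39.1 CPM in GFP cultures (-0.79, adjusted p = 1.74e-05). Acan rose by 2.21 (adjusted p = 0.0392) at only 0.453 ± 0.313 CPM in GFP_TGFB and 0.0914 ± 0.0672 CPM in GFP cultures, and its call was lost in 11 of 17 alternatives (adjusted p 0.00109 to 0.166). Among them, leaving out GFP_TGFB replicate 1 or 2 gave 1.87 and 1.94, and leaving out GFP replicate 1, 3 or 4 gave 2.26, 1.84 and 2.19. Bcan was not called (0.68, adjusted p = 0.195). Of the tested genes of these 5 lists, 0 were called by edgeR in any Hyal2 comparison or in the interaction, with or without the block.

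**Figure D4:**
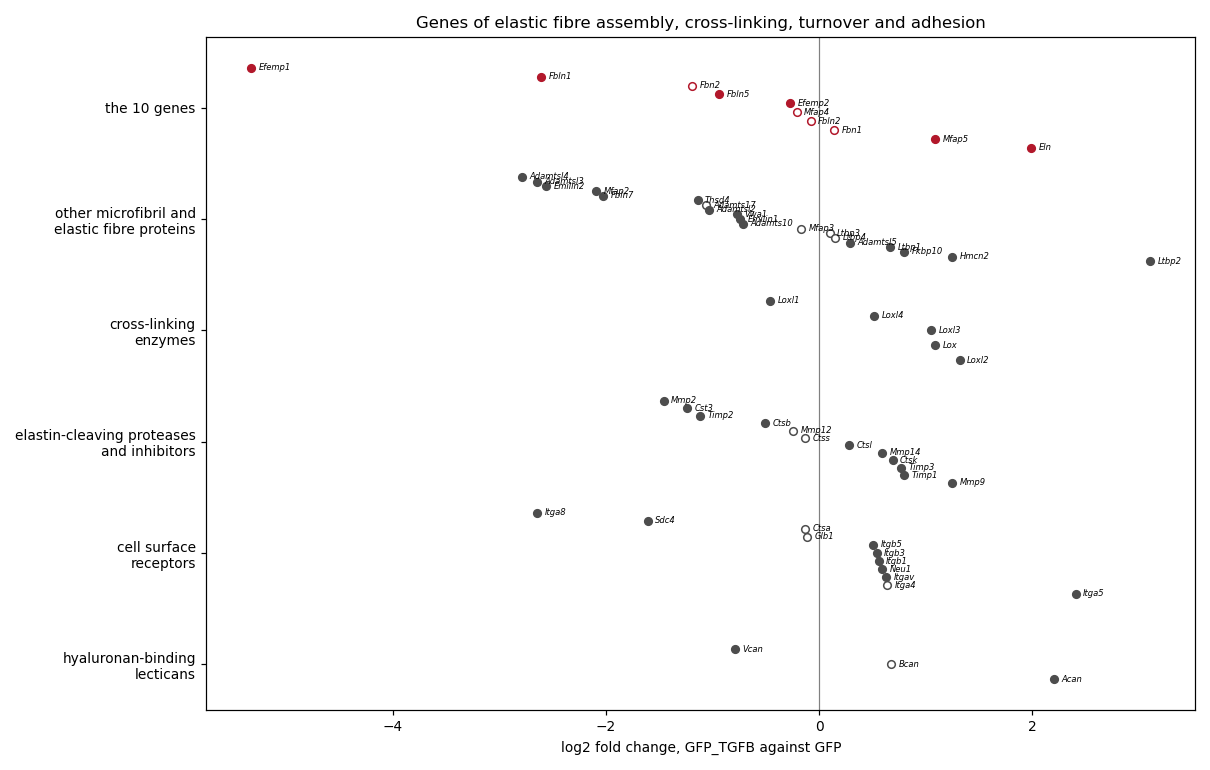
Log2 fold change between GFP_TGFB and GFP cultures for the 10 genes (top) and the tested genes of the 5 partner lists, 1 point per gene with its symbol; filled points passed an adjusted p of 0.05 and open points did not. Members of a list lie on both sides of 0 in each row, with Ltbp2 (3.11), Itga5 (2.41) and Acan (2.21) far to the right and Efemp1 (-5.33) far to the left.

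After each isolate's mean was removed from log2 CPM, genes that followed Eln closely over the 20 libraries among 9887 included Chst2 (r = 0.992) and Cplx2 (r = 0.989). For Fbn1 the closest were Zmiz1 (0.934), Fat1 (0.921) and Zfp507 (0.92). Among the 10 genes themselves the closest pair was Fbln1 with Efemp1 (r = 1.00 after rounding), Eln ran opposite to Fbln5 (r = -0.99), and Mfap5 ran opposite to Efemp1 (r = -0.98). All these libraries share the contrast between cultures with and without TGFB, so the coefficients are a description and carry no p.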

How the data were processed

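The deposited table holds raw read counts per Ensembl gene for the 20 libraries; the submitters' processing notes name FastQC 0.10.1, HTSeq 0.10.0 and the build GRCm39 (mm39), but the aligner, annotation release and strand setting were not given in the sources used here. Without a stated strand setting, reads of a gene and an overlapping antisense gene cannot be told apart. Symbols, exon lengths and gene coordinates came from GENCODE M21 on GRCm38 and promoters from RefSeq.

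Genes were filtered with edgeR's filterByExpr (minimum count 10, minimum total 15, R 4.3.3, edgeR 4.0.16), scaled by TMM and fitted with a robust quasi-likelihood model with 1 mean per group over all 20 libraries, which leaves 15 residual degrees of freedom. The standard error is the log2 fold change divided by the root of F, and 95% intervals use those degrees of freedom (12 with the replicate block). The sex difference in the TGFB response was tested in a separate model with 1 mean per group and sex (2 libraries each). That model leaves fewer residual degrees of freedom. DESeq2 1.42.0 and limma 3.58.1 (voom) were alternatives, as were other scalings and filters, the groups of a comparison alone, and leaving out each isolate or library.

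Same-numbered libraries share a stem in their library names, and their deviations from the group means correlated at 0.26 to 0.80 over every pair, so the numbers were taken to pair the samples and the replicate block was run as an alternative. No 2 libraries of a group agreed within sampling noise (lowest chi-square per degree of freedom 8.41). Nothing says whether the isolates are single animals, so p-values measure the spread between these cultures.

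The 10 genes and the partner and marker lists were chosen with earlier results of these data known. All 10 genes are named in every comparison, with the 3 genes of smallest p in each partner list; the genes most like Eln and Fbn1 were the 3 of highest r among named genes with a mean of at least 5 CPM, of which 1 is not reported here.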

Additional observations from a re-analysis of the deposited data

Results flagged for a closer look

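Eln in GFP_TGFB replicate 3, a male isolate, stood at 250 CPM while the other 3 libraries of that group lay between 165 and 170 CPM, a gap of 0.943 of the group's range, past Dixon's limit for 4 values. It was the 1 group of 4 among 50 examined with such a library, and chance flags about 1 in 20. Replicate 3 also held the highest Eln value in each other group, at 88 CPM in GFP, 77.1 in Cre, 93.6 in Hyal2 and 233 in Cre_TGFB.

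The TGFB response with the GFP virus differed between male and female isolates in the fit with the isolate as a block (edgeR quasi-likelihood test, male minus female on the log2 scale) for Eln (-0.84), Fbn2 (-1.68), Fbln1 (-0.68), Fbln5 (0.42) and Efemp1 (-1.05). Each sex is 2 isolates, so sex and isolate cannot be told apart here. For Fbn2 the within-isolate difference in log2(CPM + 0.5) was -0.96 and -1.51 in the male isolates and 0.02 and 0 (just above 0) in the female ones. The male mean minus the female mean was -1.25; on this scale the difference was not tested.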

How the results depend on the processing

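The TGFB calls of Eln, Mfap5, Fbln1, Fbln5, Efemp1 and Efemp2 kept their direction and their side of the threshold under each alternative run, in both TGFB comparisons; without scaling factors the log2 values of GFP_TGFB against GFP shifted by -0.10. The replicate block changed no other call of the 10 genes than those given with the results. The intervals of Eln, Efemp1 and Fbn2 are wide without the block, and Fbn2, at 9 to 138 counts per library, is limited by depth as well. Counting intervals and floors cover counting error only.

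Genes called between Cre and GFP numbered 1, against 42 with the replicate block, 37 with DESeq2, 0 with limma-voom, 5 with no low-count filter, 2 with the groups of the comparison only, and 0 to 2 with a replicate left out. Between Cre_TGFB and GFP_TGFB 1 gene was called, 2 with DESeq2, 2 with the groups of the comparison only, and 0 to 3 with a replicate left out. For the sex difference in the TGFB response 216 of 15624 genes were called, 945 with the replicate block and 785 with DESeq2. With no low-count filter the total was 925 of 31062 genes, and with a replicate left out it was 0 to 376. It stayed near 216 with the stricter filter and without scaling factors. Of the 10 genes, 0 were called in the main fit of the sex difference, 5 with the block, 2 with DESeq2 (Fbln5 and Efemp1), 4 with no low-count filter (Eln, Fbn2, Fbln1 and Efemp1), 1 with the stricter filter and 1 without scaling factors (Efemp1 each), and 0 to 1 with a replicate left out. The cause was not tested.

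Sign changes were confined, among the runs made, to values that were not called. Between Cre_TGFB and GFP_TGFB, Fbn2 was -0.10 with the block and -0.11 with limma-voom, Fbln1 was 0.02 and Fbln5 was 0.01 with no low-count filter, and Efemp2 in the sex difference was -0.01 without scaling factors. With a library or isolate left out, log2 values changed sign for the genes named below. Their ranges over all the alternative runs, the other scalings, filters and models included, were as follows. In Cre_TGFB against Cre the range was -0.24 to 0.01 for Mfap4. In Cre against GFP the range was -0.46 to 0.40 for Eln, -0.09 to 0.08 for Fbn1, -0.76 to 0.16 for Fbn2, -0.15 to 0.05 for Fbln1, -0.33 to 0.22 for Efemp1, -0.18 to 0.13 for Mfap4 and -0.16 to 0.03 for Mfap5. In Cre_TGFB against GFP_TGFB the range was -0.19 to 0.12 for Eln, -0.21 to 0.36 for Fbn2, -0.09 to 0.10 for Fbln1, -0.01 to 0.08 for Fbln2, -0.07 to 0.06 for Fbln5, -0.07 to 0.12 for Efemp1 and -0.07 to 0.19 for Mfap4. In Hyal2 against GFP the range was -0.35 to 0.59 for Eln, -0.27 to 0.66 for Fbn2, -0.10 to 0.12 for Fbln1, -0.05 to 0.06 for Fbln5, -0.40 to 0.17 for Efemp1, -0.02 to 0.09 for Efemp2 and -0.12 to 0.19 for Mfap4. In the interaction the range was -0.46 to 0.41 for Eln, -0.02 to 0.16 for Fbn1, -0.11 to 0.82 for Fbn2, -0.06 to 0.15 for Fbln1, -0.17 to 0.38 for Efemp1, -0.07 to 0.25 for Mfap4 and -0.11 to 0.05 for Mfap5. In the sex difference the range was 0 to 0.11 for Fbln2, -0.09 to 0.12 for Efemp2 and -0.09 to 0.23 for Mfap4.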
